A study of Mus musculus with 5 samples.

Results

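Cxcl12 and its receptors Cxcr4 and Ackr3 (named Cxcr7 in older lists) were followed on Illumina mouse bead arrays by every probe that the platform annotation gives these symbols. The genes numbered 3 of 16593 with a named probe, and their probes 7 of 25697, of which 5 belong to Cxcl12 and 1 to each receptor. The genes were chosen by their signal values in this same comparison, whose outcome was known, so those values are given as a description without a test. Of the 7 probes 3, all of Cxcl12, were detected on at least 2 arrays and entered the model fit, as did 49.1% of all probes. Each of the 5 samples was total RNA from the 46C mouse embryonic stem cell line, a single line with a green fluorescent protein reporter in the neural gene Sox1, measured on 1 array. The N2B27 48 hr group (n = 3) held embryonic stem cells taken off their plates with trypsin, washed, and grown for 48 hr in N2B27, a serum-free defined medium, with no other addition. The ESC group (n = 2) held the same line kept pluripotent in N2B27 with LIF, BMP and the FGF receptor inhibitor PD173074 at 100 nM. Neither group had feeder cells or serum, and the N2B27 of both was made with B27 lacking vitamin A. The labels call the first group competent for differentiation signals and the second pluripotent, so the comparison asks how the chemokine axis differs between these groups. The groups differ at once in LIF, BMP, the inhibitor and the described trypsin step, so state and treatment cannot be told apart.

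CXCL12, also called SDF-1, is a small secreted chemokine that binds heparan sulfate and guides the movement of many embryonic cells, among them primordial germ cells, blood progenitors and migrating neurons. It acts through CXCR4, a receptor coupled to inhibitory G proteins that drives directed migration. ACKR3 binds the same ligand with high affinity, recruits arrestins and takes the ligand up into the cell, which shapes its gradient. Mouse Cxcl12 is spliced into transcripts for alpha, beta and gamma forms, which differ in their carboxyl-terminal ends. In RefSeq these are NM_021704, NM_013655 and NM_001012477, and the annotation assigns 2, 1 and 2 probes to them. It gives the transcript a probe was assigned to, not the other transcripts it may also match.

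The arrays were broadly similar, but N2B27 48 hr replicate 1 was dimmer, with a mean signal of 187 and 42.1% of probes detected. The next lowest array, N2B27 48 hr replicate 2, had 235 and 44.7%. The mean signal was 187 to 250 on the N2B27 48 hr arrays and 242 to 264 on the ESC arrays, and 42.1% to 45.7% and 45.7% to 47.5% of probes were detected, that is, had a detection p under 0.05 against the negative controls of their array. Pearson's r across all probes was 0.991 to 0.994 within N2B27 48 hr, 0.996 within ESC and 0.949 to 0.956 between the groups. The labels were checked on Fgf5, a marker of the postimplantation epiblast, which was at least 30.7-fold higher in N2B27 48 hr, and on Nanog, a factor of naive pluripotency (log2 change -5.07 ± 0.128 SE). Of 12605 tested probes 43.1% passed an adjusted p of 0.05 (limma, Benjamini-Hochberg), and of 8828 tested genes 45.2%, of which 23.8% were higher and 21.4% lower as shares of all genes tested. Of the changed genes 52.6% were higher, and 29.7% when arrays were scaled to their medians. The changed genes numbered 3989, and 2405 without ESC replicate 1 and 2340 without ESC replicate 2.

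The region before each gene's annotated start is shown so that the ligand and the receptors can be compared in sequence beside their array values. The sequences are the 250 bases upstream of the RefSeq start in GRCm38.p6, on the strand of the gene, for Cxcl12 (chr6:117168285-117168534, plus strand), Cxcr4 (chr1:128592300-128592549, minus strand) and Ackr3 (chr1:90203730-90203979, plus strand). Capitals mark matches on either strand to TATAAA, to the GC box GGGCGG, to the palindromic consensus site of the factor NRF1 and to ACGTG, the core of a hypoxia response element.
Cxcl12: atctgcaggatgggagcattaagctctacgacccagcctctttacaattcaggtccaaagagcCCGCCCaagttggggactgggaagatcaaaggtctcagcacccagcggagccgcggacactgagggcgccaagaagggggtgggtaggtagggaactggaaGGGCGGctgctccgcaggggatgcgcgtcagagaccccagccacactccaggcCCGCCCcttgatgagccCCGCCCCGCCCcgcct
Cxcr4: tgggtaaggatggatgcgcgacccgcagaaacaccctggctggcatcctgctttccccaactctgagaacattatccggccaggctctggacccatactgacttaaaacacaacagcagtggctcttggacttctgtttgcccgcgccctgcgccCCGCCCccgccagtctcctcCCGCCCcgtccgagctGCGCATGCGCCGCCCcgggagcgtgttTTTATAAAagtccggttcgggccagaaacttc
Ackr3: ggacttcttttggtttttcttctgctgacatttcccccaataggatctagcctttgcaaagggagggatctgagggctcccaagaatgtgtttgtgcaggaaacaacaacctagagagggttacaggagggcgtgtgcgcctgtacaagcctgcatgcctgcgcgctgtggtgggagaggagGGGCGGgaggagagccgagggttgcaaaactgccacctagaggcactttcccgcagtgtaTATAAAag

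The Cxcl12 window was GC-rich (64.4%) and held 5 GC boxes, the nearest pair overlapping by 1 base, and no match to the other motifs. The Cxcr4 window (61.2% GC) held 3 GC boxes, 1 of which overlaps its single NRF1 site, which begins 59 bases before the start, and TATAAA at 32 and 30 bases before the start, overlapping matches on opposite strands. The Ackr3 window (54% GC) held 1 GC box and TATAAA at 8 bases before the start. Of 32851 such windows in RefSeq, 32.7% held a GC box, 12.4% TATAAA, 16.6% ACGTG and 0.782% the NRF1 site. These matches describe the sequence, and no binding was measured.

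Among the probes of Cxcl12 and its receptors, the largest difference between the groups was at 1 Cxcl12 probe. The beta-form Cxcl12 probe (ILMN_2658908, NM_013655) read a signal of 576, 815 and 1374 on the N2B27 48 hr arrays, against 59.8 and 57.9 on the ESC arrays. It was detected on all 3 N2B27 48 hr arrays, where 95.1% to 97.0% of all probes were dimmer, and on neither ESC array. After background correction and quantile normalization the values were 9.52, 9.56 and 10.23 on the log2(value + 16) scale in N2B27 48 hr and 4.39 and 4.27 in ESC, so the groups lay far apart. The log2 change, N2B27 48 hr minus ESC, was 5.44 ± 0.194 (SE). Because ESC had no detected signal, the fold is given as at least 35.8-fold, a bound on the background-corrected scale with the offset of 16, which sets the N2B27 48 hr mean against the lowest values of detected probes on the ESC arrays. The ratio of the mean signals with their background left in was 15.7. In the authors' normalized table the same probe read 802, 820 and 1274 in N2B27 48 hr and 61.0 and 56.5 in ESC.

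Among the 12605 probes in the fit the fitted change lay at the upper end of all changes, but its exact rank rests on an ESC level that was not above background. Detection on all N2B27 48 hr arrays and on no ESC array was found for 256 probes, or 0.996% of the table. N2B27 48 hr replicate 3 stood above the other replicates by this probe, and without it the log2 change was 5.18. The size of the change depends on the background, which makes up most of the ESC signal. It was 3.99 with no background correction and 7.40 with an offset of 1 in place of 16.

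Of the other 4 Cxcl12 probes, 2 were higher in N2B27 48 hr and 2 were not detected on any array. An alpha-form probe (ILMN_2737302, NM_021704) had log2 values of 5.71, 5.65 and 5.77 in N2B27 48 hr and 4.37 and 4.68 in ESC, where only replicate 2 was detected. Its log2 change was 1.18 ± 0.153. A gamma-form probe (ILMN_3158250, NM_001012477), the only member probe detected on all 5 arrays, had 6.14, 5.97 and 6.01 in N2B27 48 hr and 4.91 and 5.11 in ESC, a log2 change of 1.02 ± 0.149. Thus 1 of 5 Cxcl12 probes gave a low detected signal on both ESC arrays, and its sequence was not checked for other matches.

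The remaining probes of the same transcripts stayed at background. The second alpha-form probe (ILMN_2746295) lay between 4.31 and 4.55 in N2B27 48 hr and between 4.34 and 4.51 in ESC (log2 change -0.0017 ± 0.109). The second gamma-form probe (ILMN_3078973) lay between 4.29 and 4.57 in N2B27 48 hr and between 4.28 and 4.38 in ESC (0.12 ± 0.110). For 3 of the 5 probes all N2B27 48 hr values lay above both ESC values, as they did for 34.6% of the tested probes and 23.1% of all probes, while the other 2 overlapped.

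The 5 probes therefore did not agree in size: 1 was far higher in N2B27 48 hr, 2 were moderately higher and 2 showed no detected signal. The bound of the beta-form probe, at least 35.8-fold, stands beside 2.03-fold for the gamma-form probe that was detected on all 5 arrays. Probes of 1 annotated transcript also differed. The log2 change of ILMN_2737302 minus that of ILMN_2746295, the alpha-form pair, was 1.19 ± 0.224 (SE over arrays). For ILMN_3078973 minus ILMN_3158250, the gamma-form pair, it was -0.91 ± 0.0919. In each pair 1 probe was detected on no array, so its own change was not measured above background. The offset compresses the changes of dim probes, and the share of each splice form was not measured. Of 8 genes with at least 2 probes whose brightest tested probe rose at least 8-fold, Cxcl12 and Pdzrn3 were the 2 with a probe detected on no array. Cxcl12 has 5 probes, which gives it more chances of such a probe, and 44.4% of all probes were detected on no array.

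**Figure D1:**
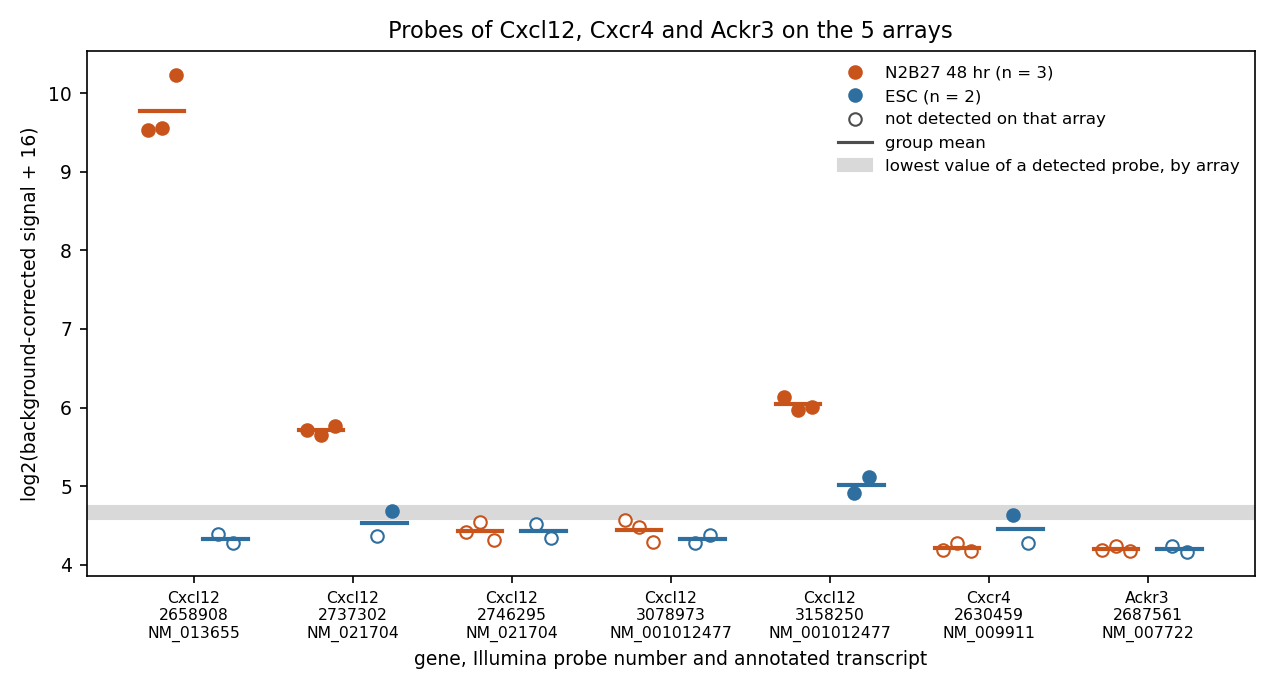
Normalized log2(background-corrected signal + 16) of the 7 probes on each array, N2B27 48 hr left of ESC, with horizontal lines at the group means, open points where the probe was not detected, and a grey band for the lowest values of detected probes (4.59 to 4.75 by array). The beta-form Cxcl12 probe lies far above the band in N2B27 48 hr alone, 2 further Cxcl12 probes are moderately higher there, and the other Cxcl12 probes and both receptors lie in or below the band.

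**Figure D2:**
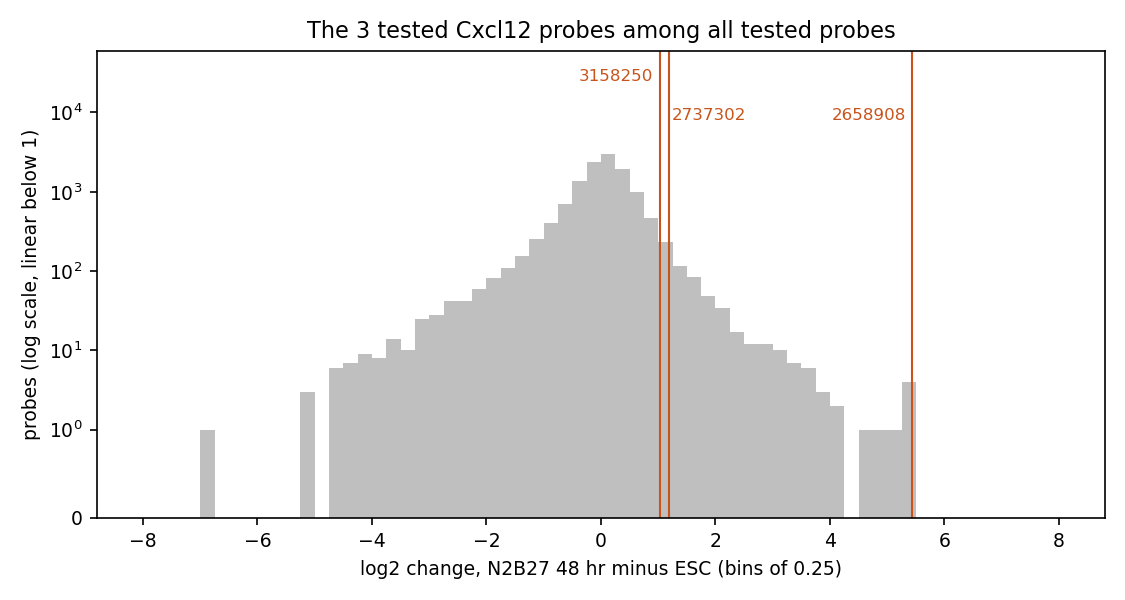
Histogram of the log2 change, N2B27 48 hr minus ESC, over the 12605 tested probes in bins of 0.25, with vertical lines at the 3 tested Cxcl12 probes. The beta-form probe lies at 5.44 at the upper end of the distribution, and the others at 1.18 and 1.02 on its shoulder.

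Neither receptor gave a clear signal in either group. The Cxcr4 probe (ILMN_2630459, NM_009911) read a signal of 49.2, 55.5 and 49.5 on the N2B27 48 hr arrays and 66.9 and 58.3 on the ESC arrays. It was detected on ESC replicate 1 alone at the limit of 0.05, and on no array at a limit of 0.01. Its normalized log2 values were 4.19, 4.28 and 4.18 in N2B27 48 hr and 4.64 and 4.28 in ESC, where the highest N2B27 48 hr value and ESC replicate 2 agree to 2 decimals. All N2B27 48 hr values were nominally below both ESC values, as for 19.3% of all probes. The difference of -0.25 ± 0.139 was -0.067 without ESC replicate 1 and -0.42 without ESC replicate 2, so it rests on a single array.

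The Ackr3 probe (ILMN_2687561, NM_007722) was detected on 0 of 5 arrays, with a signal of 48.8, 53.4 and 49.3 in N2B27 48 hr and 53.6 and 49.3 in ESC. Its log2 values were 4.18, 4.24 and 4.18 in N2B27 48 hr and 4.24 and 4.16 in ESC, a difference of -0.00095 ± 0.0396. At most 10.4% of the probes on any array were dimmer. Of all probes 44.4% were detected on no array. With 1 probe for each receptor, transcripts that these probes do not read were not measured, and Cxcl12 itself had both a bright probe and others at background. In bulk RNA fewer cells expressing a gene and less RNA per cell cannot be told apart.

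The genes whose profile was most like that of the beta-form Cxcl12 probe were sought by the root-mean-square difference of log2 values, each profile centred on its mean, over the 5 arrays. They were the POU transcription factor gene Pou3f1 (0.209), the epithelial splicing regulator Esrp1 (0.214), the MAP kinase phosphatase Dusp4 (0.233), Fgf5 (0.293) and the smooth muscle actin gene Acta2 (0.470). With 2 groups this far apart the measure mostly follows the size of the log2 change, 5.44 for Cxcl12 and 4.52 to 5.47 for these genes. It uses the same values by which Cxcl12 was chosen, and a link between the genes was not tested. Fgf5 had 9.53, 9.53 and 9.58 in N2B27 48 hr and 4.27 and 4.50 in ESC, close to the Cxcl12 values on all arrays but N2B27 48 hr replicate 3. Acta2 had 8.71, 8.37 and 9.34 in N2B27 48 hr by its brightest probe and 4.31 and 4.26 in ESC, and it was likewise highest on replicate 3. The other 3 Acta2 probes differed by 0.35 to 1.66. For the receptors the same search was led by Vamp4 (0.0106) for Cxcr4 and by Myo9a (0.0124) for Ackr3, but it matched receptor values that lie at background.

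**Figure D3:**
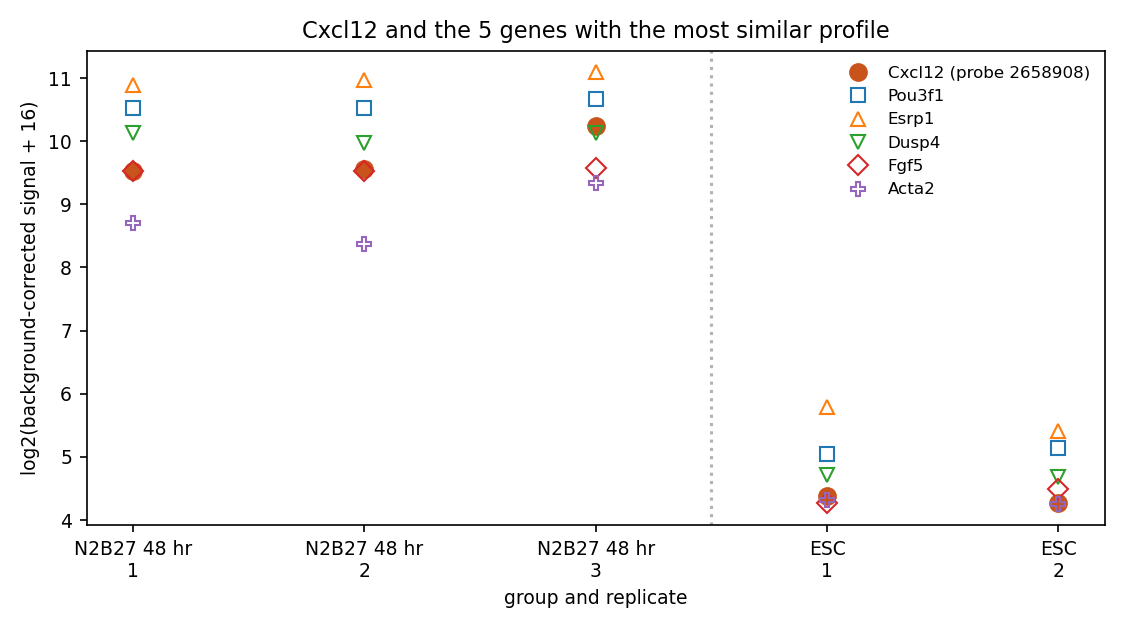
Normalized log2(background-corrected signal + 16) of the beta-form Cxcl12 probe and of the 5 genes with the most similar profile, by array, N2B27 48 hr left of ESC. All 6 lie between 8.37 and 11.09 in N2B27 48 hr and between 4.26 and 5.78 in ESC, and Cxcl12 and Acta2 stand higher on N2B27 48 hr replicate 3 than on the other replicates by a wider gap than the other 4 genes.

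Cxcl12 is made by stromal cells, so markers of fibroblasts and stroma were read beside it. All 11 had a probe, 5 were tested, and 3 rose and 2 fell, beside 23.8% of all genes tested that rose and 21.4% that fell. Acta2 (at least 18.3-fold), the surface glycoprotein gene Thy1 (log2 change 2.30 ± 0.141) and the proteoglycan gene Dcn (at least 2.84-fold) rose, and Vim (log2 change -0.86 ± 0.115) and Fbln2 (at least 1.48-fold lower) fell, all at adjusted p under 0.05 in limma. The summed level of the list, on the linear background-corrected scale by the brightest probe of each gene, was 801 to 1110 in N2B27 48 hr and 426 to 454 in ESC. Much of that difference comes from the brightest Acta2 probe, with log2 values of 8.37 to 9.34 in N2B27 48 hr and 4.26 to 4.31 in ESC. The other Acta2 probes had log2 changes of only 0.35 to 1.66, so the sum does not describe the list as a whole. The defining collagen genes Col1a1, Col1a2 and Col3a1, with Pdgfrb and Postn, were detected on 0 arrays, and Lum on 1. Their part in the Cxcl12 result was not tested.

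Cell types known for CXCR4 were also read. Of the definitive endoderm genes with a probe 7 of 9 were detected on no array, among them Sox17, Foxa2 and Eomes. The 2 that were tested fell, Gsc at least 5.31-fold and Hhex by 1.29 on the log2 scale. Of the blood genes 8 of 10 were detected on no array, among them Ptprc and Spi1, and the 1 tested, Laptm5, fell by 2.76 ± 0.306. Of 10 endothelial genes 7 were tested, and 4 fell (Pecam1, Eng, Tek and Vwf) and 3 did not pass, beside 21.4% of all genes tested that fell, while Cdh5, Tie1 and Emcn were detected on no array. Of 4 tested primordial germ cell genes Tfap2c, Dppa3 and Dazl fell and Ddx4 did not pass, with Prdm14 and Nanos3 detected on no array. The same 21.4% stands beside the falls in the endoderm, blood and germ cell lists. Beside the genes detected on no array stand 44.4% of all probes. All 8 embryonic stem cell markers fell as well. Whether cells of the types read here were present was not tested.

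Around the axis, 8 lists of pathway genes held 99 tested genes, of which 23 rose and 25 fell (48.5%, beside 45.2% of all genes tested), with a median log2 change of 0.059 beside 0.049 for all genes. Under scaling of each array to its median, which moved the median of all genes to -0.11, 12 rose and 24 fell. Without ESC replicate 2 the counts were 15 and 16. The lists were written with earlier results of these data known.

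Other chemokines were for the most part not detected on any array, beside 44.4% of all probes, a share by probe and not by gene. Of 37 other chemokine ligands, all with a probe, 30 were detected on no array and 5 were tested. Ccl25, a thymus and gut chemokine, had 4.91, 4.61 and 4.99 in N2B27 48 hr and 7.95 and 8.06 in ESC, without overlap. It fell by 3.18 ± 0.159 (adjusted p = 7.8e-08, limma), and its second probe, not detected on the N2B27 48 hr arrays, fell at least 1.70-fold (adjusted p = 5.3e-04, limma). Cxcl16, the ligand of CXCR6, had 4.53, 4.95 and 5.55 in N2B27 48 hr, where it was detected on 2 of 3 arrays, and 4.32 and 4.22 in ESC. It rose at least 1.32-fold (adjusted p = 0.029), a call lost without ESC replicate 1 or 2 (adjusted p = 0.115 and 0.169). Ccl11, Ccl19 and Ccl27a did not pass.

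Of 20 other chemokine receptors with a probe 16 were detected on no array, beside 44.4% of all probes. Ackr1, an atypical receptor of inflammatory chemokines and the only one tested, was detected on 2 of 3 N2B27 48 hr arrays and 0 of 2 ESC arrays, with a log2 difference of 0.36 (adjusted p = 0.064, limma). It passed the test in 5 alternatives, among them the authors' normalized values (adjusted p = 0.039) and N2B27 48 hr replicate 2 left out (0.038).

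Among 4 tested alternative ligands and partners, 1 rose and 1 fell (50%, beside 45.2% of all genes tested). Mif, a cytokine that can bind CXCR4, was bright in both groups, with 14.59, 14.59 and 14.49 in N2B27 48 hr and 14.10 and 14.10 in ESC, the equal values coming from equal ranks under quantile normalization. It rose by 0.45 ± 0.0618 (adjusted p = 1.5e-04, limma), but not past the threshold under median scaling (0.29, adjusted p = 0.290). Slit2, whose signal through Robo1 can damp CXCR4 responses, fell at least 1.10-fold (adjusted p = 0.027), a call lost without N2B27 48 hr replicate 2 or 3 (adjusted p = 0.065 and 0.058) and with the replicate number as a block (0.081).

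Genes that cleave or hold CXCL12 moved in both directions, 7 up and 6 down of 19 tested (68.4%, beside 45.2% of all genes tested, median 0.13). The protease that removes the first residues of CXCL12 and inactivates it, Dpp4, had 5.90, 5.60 and 5.29 in N2B27 48 hr and 7.03 and 6.92 in ESC. It fell by 1.38 ± 0.182 (adjusted p = 1.3e-04, limma), and all N2B27 48 hr values lay below both ESC values, as for 28.7% of the tested probes. Another protease that cleaves it, Mmp2, had 7.59, 7.53 and 7.91 in N2B27 48 hr and 6.23 and 6.53 in ESC, and rose by 1.30 ± 0.155 (adjusted p = 6.2e-05, limma).

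CXCL12 is held at the cell surface by heparan sulfate, and the genes of 2 of its carrier proteins, Sdc2 (log2 change 1.18 ± 0.151) and Gpc1 (0.79 ± 0.112), rose. Gpc4 (0.59), Gpc3 (0.33) and Sdc1 (at least 1.27-fold) also rose and Sdc3 fell by 0.52, but without ESC replicate 2 none of these 4 passed (adjusted p = 0.102, 0.052, 0.185 and 0.172). Perlecan, encoded by Hspg2 and laid down in basement membranes, fell by 1.64 ± 0.112 (adjusted p = 8.5e-07, limma). Of the enzymes that build the chains, Ext1 rose by 0.85, Hs6st1 fell by 1.23 ± 0.130 and Ext2 by 0.73 ± 0.135, and Hs2st1 did not pass (0.13, adjusted p = 0.514). The second Hs6st1 probe was detected on no array, and the second Gpc3 probe differed by 0.18 and did not pass (adjusted p = 0.241, limma). The calls of Ext1 and Gpc1 were lost under median scaling (adjusted p = 0.088 and 0.117).

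G proteins and kinases below the receptor gave 4 rises and 8 falls among 25 tested (48%, beside 45.2% of all genes tested, median -0.069). The G protein gamma subunit genes Gng2 and Gng10 rose by 1.39 ± 0.195 and 1.20 ± 0.180, Gng2 by both of its probes, and the adaptor gene Bcar1 rose by 1.07 ± 0.160. The alpha subunit gene Gna13 fell by 1.60 ± 0.127 (adjusted p = 2.7e-06, limma), the beta subunit gene Gnb4 by 0.94 and the phosphoinositide kinase gene Pik3cb by 0.91. Another phosphoinositide kinase gene, Pik3cd, rose by 0.77 ± 0.191 (adjusted p = 0.0072, limma) by the only 1 of its 3 probes tested. Its call was lost in 2 of 16 alternatives. The Janus kinase gene Jak3 fell by both of its probes (adjusted p = 5.0e-05 and 0.022, limma). Of the inhibitory alpha subunits through which CXCR4 signals, Gnai2 was tested and fell by 0.27 (adjusted p = 0.035), a call lost under median scaling (0.226) and without ESC replicate 1 (0.205), ESC replicate 2 (0.152) or N2B27 48 hr replicate 2 (0.113).

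Regulators of cell migration gave 5 rises and 3 falls among 14 tested (57.1%, beside 45.2% of all genes tested, median 0.33). Elmo1, a partner of DOCK proteins in Rac activation, had 8.42, 8.38 and 8.48 in N2B27 48 hr and 6.58 and 6.75 in ESC, and rose by 1.77 ± 0.115 (adjusted p = 6.2e-07, limma). Its call rests on 1 of 14 probes, since the only other probe tested did not pass (0.17, adjusted p = 0.377). Rac3 rose by 1.05 ± 0.156 and the actin regulator gene Wasf1 by 0.83 ± 0.118, Wasf1 not past the threshold under median scaling (adjusted p = 0.091). The Rac exchange factor genes Tiam1 (-0.83 ± 0.105) and Dock1 (-0.96 ± 0.282) fell, Dock1 not past the threshold without ESC replicate 2 or N2B27 48 hr replicate 1 or 2 (adjusted p = 0.180, 0.061 and 0.080).

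Genes of receptor desensitisation and trafficking gave 4 rises and 2 falls among 20 tested (30%, beside 45.2% of all genes tested, median 0.074). Arrb1, an arrestin that binds activated receptors, was detected on 3 of 3 N2B27 48 hr and 0 of 2 ESC arrays by its brightest probe, and rose at least 1.61-fold (adjusted p = 3.4e-04, limma). Of its 5 probes 3 were tested, 2 rose, and the third did not pass (adjusted p = 0.060). The receptor kinase gene Grk6 rose by 0.73 ± 0.123 by its brighter probe and also by the other. The recycling GTPase gene Rab4a fell by 1.58 ± 0.121 (adjusted p = 2.1e-06, limma). Under median scaling Grk6 did not pass (adjusted p = 0.180).

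Of 11 tested factors known to regulate the axis, 1 rose and 4 fell (45.5%, beside 45.2% of all genes tested, median -0.11). The rise was that of Egln3, an oxygen-sensing hydroxylase (0.49, adjusted p = 0.032), whose call was lost in 6 of 16 alternatives, with an adjusted p of up to 0.538. Without ESC replicate 1 or 2 none rose and 2 fell. Notch1 had 5.49, 5.73 and 5.69 in N2B27 48 hr and 7.29 and 7.23 in ESC, and fell by 1.62 ± 0.143 (adjusted p = 6.4e-06, limma). Epas1, a hypoxia-inducible factor, was detected on 0 of 3 N2B27 48 hr and 2 of 2 ESC arrays by its brightest probe and fell at least 1.48-fold, with its other probes not tested. Its relative Hif1a differed by 0.46 and did not pass (adjusted p = 0.072), though it did without N2B27 48 hr replicate 1 (0.018). Nrf1, whose site lies in the Cxcr4 window, was detected on all 5 arrays and differed by -0.095 (adjusted p = 0.557).

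**Figure D4:**
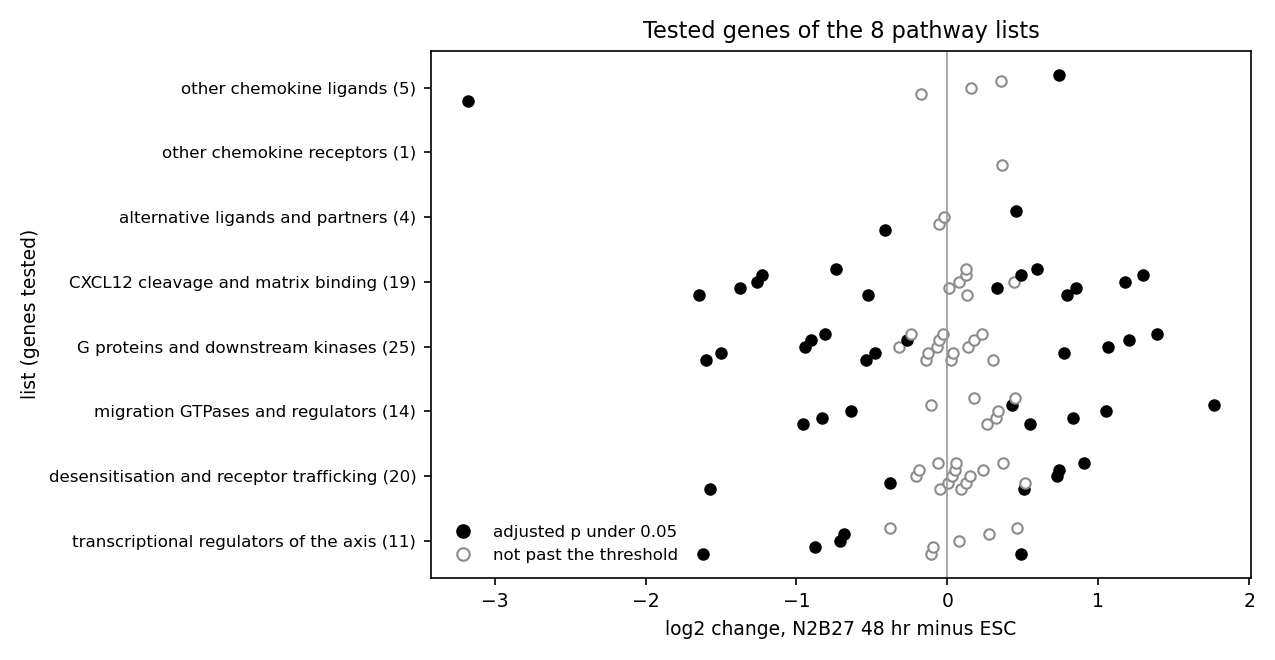
Log2 change, N2B27 48 hr minus ESC, of each tested gene of the 8 pathway lists, with the number tested in brackets and filled points past an adjusted p of 0.05. Points lie on both sides of 0 in every list with at least 4 tested genes, from -3.18 for Ccl25 to 1.77 for Elmo1.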

How the data were processed

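The authors deposited bead signal intensity values per probe, linear and not normalized between arrays, with detection p-values, per the file headers. The submitters' processing notes name BeadStudio without a version. The series' value table, also deposited, gives intensities that the authors normalized. It ranked probes as the signals do, was linear, shared 1 distribution across arrays and was not centred, with column medians of 65.2 to 65.3, and its method is not stated. Intensities were corrected in limma 3.58.1 (R 4.3.3) by normexp with control statistics inferred from the detection p-values, an offset of 16 was added, and log2 values were quantile normalized. Fold changes are thus on the log2(value + 16) scale and understate the change of dim genes. Probes detected (p under 0.05) on at least 2 arrays entered a linear model with moderated variances (lmFit, eBayes with trend), two-sided, with Benjamini-Hochberg adjustment over 12605 probes. Precision is limited by having 5 arrays. A gene was represented by its brightest probe in the fit. Members outside the fit have a standard error from their own probe. Simulated data were used to check the fit. The labels do not say that replicates were separate cultures, so the p-values may reflect technical spread alone. No slide is named in the files.

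Symbols came from the platform annotation, updated by Entrez identifier through RefSeq (GRCm38.p6), which also gave the promoter sequences, 1 for each of the 3 genes. Probe sequences were not used here. Members and gene lists were chosen with earlier results of these data known. Genes were named by a rule, up to 4 changed genes per list and direction by size and the 5 most similar profiles per member. Not all are printed, and further list members and probes were named after their values were seen. Figures were drawn with matplotlib 3.10.9.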

Additional observations from a re-analysis of the deposited data

How the results depend on the processing

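Alternatives covered the background step (none, or normexp without controls), the offset, the scaling (medians, cyclic loess or the authors' table), 3 other detection filters, each array left out, and the replicate number as a block. A slide block was not run, since the files name no slide. The log2 change of the beta-form Cxcl12 probe, 5.44, was 3.99 without background correction, 4.99 by normexp without control information, 4.07 and 7.40 with offsets of 50 and 1, and 4.01 in the authors' values, and 5.18 to 5.68 with an array left out. That of Cxcr4, -0.25, was -0.50 by normexp without control information, -0.91 with an offset of 1, and -0.42 to -0.067 with an array left out. That of Ackr3 moved by less than its spread between replicates in all 16. Median scaling gave 3540 changed probes and 2562 changed genes, against 5427 and 3989. With an array left out the counts ran from 3108 to 5760 probes, 2340 to 4234 genes and, for the pathway lists, 31 to 47 genes against 48. Leaving out an ESC array leaves 1, assumed to vary like the other group. Of 67 named genes tested 43 kept their side of the threshold in every alternative run, and 0 reversed direction. The replicate numbers pair the samples by number only. Same-numbered arrays deviated with correlations of -0.085 and -0.028. The deviations of 2 ESC arrays mirror each other, so these values can hardly show or exclude pairing. With the replicate block 4354 genes changed and the Cxcl12 probe changed by 5.21. N2B27 48 hr replicate 3 has no ESC partner and enters that estimate only through the normalization. With that array left out the change was 5.18. The receptor probes lie at background, where differences are not measurable.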
